A study of Mus musculus with 16 samples.

Results

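Potassium channel genes of the mouse retina were taken as every gene of the deposited comparison whose symbol starts with Kcn, with 1 inward rectifier gene left out, which gave 93 of 25905 genes. By their prefixes, 30 encode pore-forming subunits of voltage-gated channels, 10 the electrically silent subunits that join them, 14 inward rectifiers, 14 two-pore channels, 8 calcium-activated channels and their relatives, and 16 auxiliary subunits. The last one, Kcnq1ot1, is a noncoding RNA. The retinas came from the right eyes of wild type C57BL/6 male mice. Their age is given as 10 weeks, which for the flown mice was the age at launch. One group of 8 lived on the International Space Station for 35 days (spaceflight), and a group of 8 was kept on Earth in the same housing hardware, with the same diet and light cycle (ground control). Tissue was collected 38 ± 4 hours after splashdown, so the flight, the landing and the return to normal gravity cannot be told apart.

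Potassium channels let potassium ions out of the cell and set its resting voltage and the shape of its response. Voltage-gated channels open on depolarisation, inward rectifiers pass current best near the resting voltage, two-pore channels carry the steady leak, and calcium-activated channels tie the membrane voltage to calcium entry. In photoreceptors, the silent subunit Kcnv2 joins pore-forming subunits in the channels that carry the outward current of the inner segment, which balances the current that enters through the light-gated channels of the outer segment. Loss of human KCNV2 causes a cone dystrophy with an altered rod response.

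What the pore-forming classes share is the selectivity filter, the short loop that lets potassium pass and keeps sodium out. The stretches below come from the coding part of GENCODE M21 transcripts (GRCm38). They are shown because the filter, which the choice by symbol did not use, separates pore-forming from auxiliary members at the level of sequence. It does not tell the pore-forming classes apart, except for the second pore of most two-pore members. The capitals mark the 5 codons of the filter, with 5 codons on each side.
Kcnv2: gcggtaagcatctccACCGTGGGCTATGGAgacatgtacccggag
Kcnj14: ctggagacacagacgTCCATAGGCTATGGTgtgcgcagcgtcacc
Kcnk3, first pore: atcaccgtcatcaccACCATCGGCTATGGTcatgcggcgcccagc
Kcnk3, second pore: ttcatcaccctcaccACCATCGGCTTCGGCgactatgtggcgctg
Kcnma1: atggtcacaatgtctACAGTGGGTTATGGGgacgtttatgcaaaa
Kcnn1: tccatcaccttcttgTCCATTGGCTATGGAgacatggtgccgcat

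The signature searched was serine or threonine, then valine, isoleucine or leucine, then glycine, then tyrosine, phenylalanine or leucine, then glycine, in the translated coding part. It was found exactly once in all 30 voltage-gated pore-forming, all 10 silent, all 14 inward rectifier and all 8 calcium-activated members. Of the 14 two-pore members, 12 held it at 2 places, and Kcnk1 and Kcnk7 at 1. A filter with other residues is not found by this signature, so the number of matches is not the number of pores. None of the 16 auxiliary members held it. Among 20398 genes without a Kcn symbol, 0.966% held it at least once.

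For each gene, the deposited comparison holds the normalized count averaged over the 16 libraries and a log2 fold-change with its standard error, positive where spaceflight is higher, beside p-values from the Wald test of DESeq2. No value per mouse can be given, since the codes of the count columns name no mouse, and for the same reason the depth of each library is not analysed here. Genes with an adjusted p-value are called tested, and the authors' filter on abundance left out those with a mean normalized count under 26.4. Of the 93 members, 51 were tested (54.8%), against 41.2% of all genes. Markers of rods ran from 88.9 to 214462 and those of bipolar cells from 675 to 4239, while those of blood did not exceed 10.7. The lists for cones, ganglion cells and Muller glia also held a marker under 10. These markers, Pde6c, Rbpms and Rlbp1, have 2, 3 and 2 transcript models, for which low values are taken up below. The other markers of cones ran from 941 to 2800 and those of ganglion cells from 461 to 2999. Markers of the pigment epithelium, which borders on the retina, ran from 2.72 to 540, the lowest being Best1, with 1 transcript model. Those of the lens, another neighbour, ran from 161 to 898.

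Levels were compared between genes as mean normalized counts per kilobase of the longest transcript matched to each gene. Kcnj14, a strong inward rectifier, had 1315 and the silent subunit Kcnv2 had 1114. Before division by length their mean normalized counts stood in the other order, 3526 and 5691, so their order depends on the length used. Other high levels were those of the auxiliary subunit Kcnab2 with 861, Kcnma1, the pore of the large-conductance calcium-activated channel, with 487, and the auxiliary subunit Kcne2 with 460. Of the summed level of the tested members, the voltage-gated pore-forming class held 33.6%, the auxiliary subunits 24.8%, the inward rectifiers 18.1%, the silent subunits 13.5%, the calcium-activated class 6.81% and the two-pore class 2.98%. The transcripts matched to Kcnma1 and Kcnn2 hold the coding part only (3711 bases for 1236 residues and 1725 for 574). Many others include long untranslated parts, such as that of Kcnv2 (5108 bases for 562 residues). The levels per kilobase of Kcnma1 and Kcnn2, and the share of the calcium-activated class, are therefore raised by comparison. How far neighbours in this order differ beyond the spread between mice could not be tested without values per mouse.

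**Figure D1:**
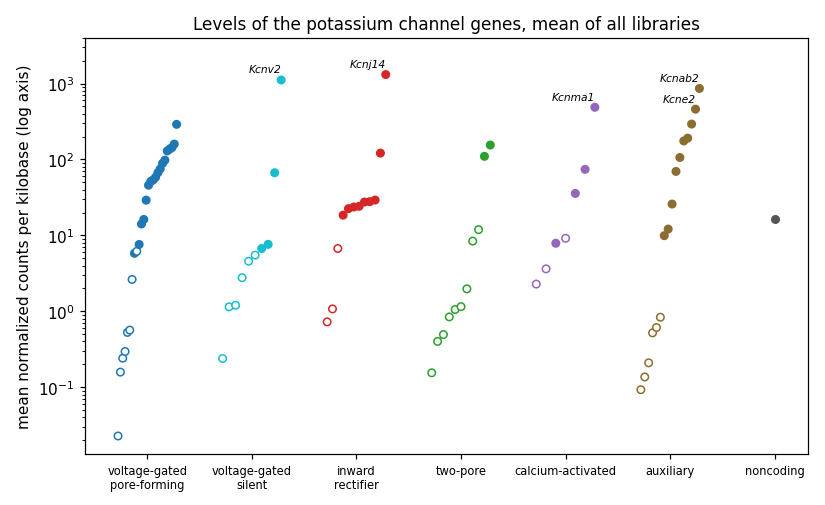
Mean normalized counts per kilobase of transcript (log axis, mean over all libraries) of the potassium channel genes listed above 0 and described here, by class. Filled points passed the filter on abundance. Kcnj14 (1315) and Kcnv2 (1114) stand at the top of their classes.

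Among the inward rectifiers Kcnj14 had 10.8 times the level per kilobase of the next, Kcnj9 (121), and the other 7 tested members lay between 18.5 and 29.2. The lowest of them, Kcnj6, has 4 transcript models, for which low values are taken up below. Among the voltage-gated pore-forming genes, Kcna5 had 290, Kcnh5 had 159 and Kcnh2 had 143. Only 2 of 14 two-pore genes were tested, Kcnk1 (155) and Kcnk3 (110), the lowest share of any class.

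No potassium channel gene passed the threshold for a differentially expressed gene (DEG), an adjusted p-value of 0.1 in the Wald test of DESeq2. The share over all tested genes was 5.62%, which for 51 genes comes to 2.87. An unadjusted p-value under 0.05 was seen in 6 members, or 11.8%, against 14.8% of all tested genes. Of these, 3 were higher in spaceflight, where the share of all tested genes was 6.83%, and 3 were lower, where it was 7.93%. Both counts are near the background.

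The size of the changes was also near that of other genes. The median log2 fold-change of the tested members was 0.0049, with 26 higher in spaceflight and 25 lower, and that of all tested genes was -0.0059. The median size, in either direction, was 0.066 against 0.077 for all tested genes. The standard errors were alike, with a median of 0.082 for the members and 0.084 for all tested genes, so a median member had to change by 1.17-fold to pass the threshold. The 95% interval lay wholly inside a 1.2-fold change in either direction for 27 of the 51 members (52.9%, against 53.1% of all tested genes) and inside a 1.5-fold change for 47. The 4 whose intervals reached beyond 1.5-fold were Kcnj12, Kcnj13, Kcnmb2 and Kcnip3, with mean normalized counts of 58.1, 37.1, 35.4 and 27.1.

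**Figure D2:**
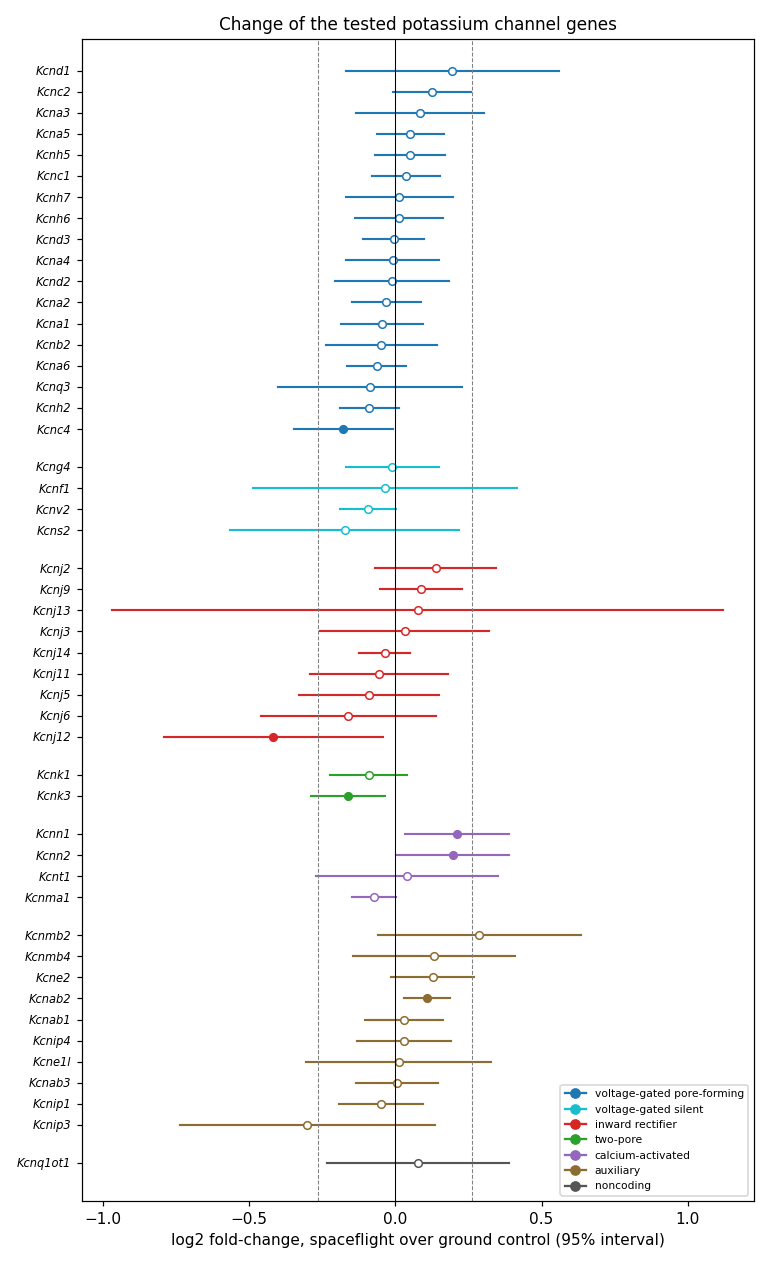
Log2 fold-change, positive where spaceflight is higher (points), with 95% intervals (bars) for the tested potassium channel genes described here, by class. Filled points have an unadjusted p-value under 0.05, and dashed lines mark a 1.2-fold change. The 6 filled points lie on both sides of 0, and the bar of Kcnj13 is the widest.

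**Figure D3:**
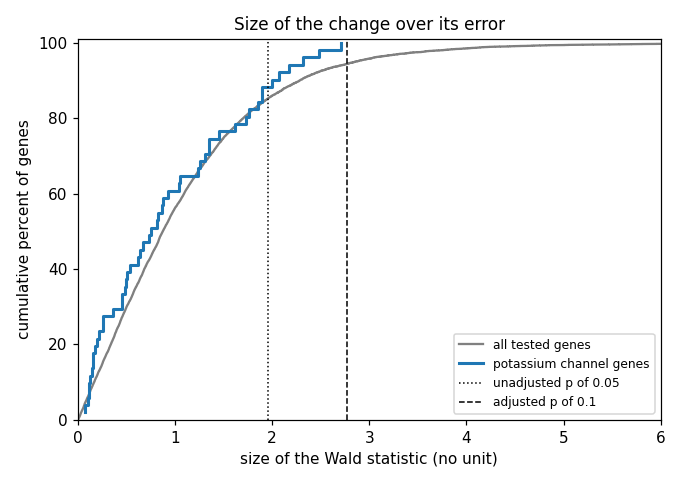
Cumulative percent of genes (vertical axis) up to a given size of the Wald statistic (horizontal axis, no unit), for potassium channel genes and for all tested genes. The line of the potassium channel genes ends at Kcnab2, before the dashed line at the threshold for DEGs.

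Among the 21 tested voltage-gated pore-forming genes, 10 were higher and 11 lower, with a median log2 fold-change of -0.0057, and all intervals lay inside a 1.5-fold change. The silent subunit Kcnv2, above 99.1% of tested genes in abundance, was 6.23% lower, with a 95% interval of -0.19 to 0.0032 on the log2 scale (adjusted p = 0.363, DESeq2).

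The Kcna genes, which form delayed rectifiers and, in Kcna4, a rapidly inactivating current, had log2 fold-changes between -0.064 (Kcna6) and 0.084 (Kcna3) in 6 tested members. Kcna5, Kcna1 and Kcna6 lie next to each other on the genome, and their values were 0.051, -0.045 and -0.064. The Kcnc genes, whose channels open and close fast enough for rapid firing, held the lowest value of the class. Kcnc4 was 11.6% lower (interval -0.34 to -0.0095, unadjusted p = 0.0384, adjusted p = 0.294), while Kcnc2 was 9.12% higher (-0.0070 to 0.26, adjusted p = 0.378). Kcnc1 was at 0.037, with an interval of -0.080 to 0.15. The highest value was that of Kcnd1, 0.19, at a mean normalized count of 40.1 and with an interval from -0.17 to 0.56. Kcnb2, a delayed rectifier, was at -0.048.

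Kcnd2 and Kcnd3, which carry the rapidly inactivating current of dendrites, were at -0.012 and -0.0057, and Kcnd3 turned to 0.022 with the trend removed. Among the ether-a-go-go relatives, Kcnh2, whose channel repolarises the heart, was 6.01% lower (interval -0.19 to 0.012, adjusted p = 0.429). Kcnh5, Kcnh6 and Kcnh7 were at 0.050, 0.013 and 0.014, and Kcnh7 turned to -0.0053 with the trend removed. Kcnq3, a subunit of the slow M current of neurons, was at -0.086 with a standard error of 0.16. All 4 tested silent subunits were lower, from -0.0100 for Kcng4 to -0.17 for Kcns2, and none had an unadjusted p-value below 0.05 in DESeq2. After the trend on transcript length and GC content was removed, Kcng4 stood at 0.035 and Kcnf1 at 0.0051, so their direction depends on the processing.

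The 9 tested inward rectifiers had 4 higher and 5 lower members and a median log2 fold-change of -0.037. Kcnj14, with the highest level per kilobase of the 93 members, was 2.51% lower with a narrow interval, -0.12 to 0.050 (adjusted p = 0.774, DESeq2). Kcnj12, a strong rectifier of the same subfamily, had the largest difference of all tested members, 25.1% lower with an interval of -0.79 to -0.041 (unadjusted p = 0.0297, adjusted p = 0.259). It would have needed a 1.44-fold change to pass the threshold. Kcnj2, of that subfamily as well, was 10.1% higher, with an interval from -0.068 to 0.34. The 4 rectifiers gated by G proteins, Kcnj3, Kcnj5, Kcnj6 and Kcnj9, ran from -0.16 (Kcnj6) to 0.088 (Kcnj9). Kcnj11, the pore of the ATP-sensitive channel, was at -0.055.

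Both tested two-pore genes were lower. Kcnk3, an acid-sensitive leak channel, was 10.5% lower, with an interval of -0.29 to -0.034 (unadjusted p = 0.0130, adjusted p = 0.169). Kcnk1 was 6.09% lower, with an interval of -0.22 to 0.041 (adjusted p = 0.586). The other 12 two-pore genes were below the filter. Kcnk9, an acid-sensitive channel related to Kcnk3, Kcnk12 and the mechanically gated Kcnk4 had mean normalized counts of 24.3, 23.5 and 14.8. Kcnk16 and Kcnk18 were listed at 0, as was Kcnk13, which has 3 transcript models and whose expression was not determined. With so few tested members, the class as such cannot be compared with the others.

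Of the 4 tested calcium-activated genes, 3 were higher and 1 lower. The small-conductance channels Kcnn1 and Kcnn2, which slow repeated firing, were 15.7% and 14.6% higher, with intervals of 0.033 to 0.39 and 0.0040 to 0.39 (unadjusted p = 0.0202 and 0.0454). Their adjusted p-values were 0.214 and 0.323. Kcnn3, just below the filter with a mean normalized count of 26.4, stood at 0.33 (standard error 0.22) on the log2 scale. Kcnn4, with 2 transcript models, was listed at 0, and its expression was not determined. Kcnma1, of large conductance and the most abundant of the class, was 4.94% lower, with an interval of -0.15 to 0.0025 (adjusted p = 0.363). Kcnt1, the sodium-activated relative, was at 0.040 with an interval of -0.27 to 0.35. The intervals of Kcnn1 and Kcnn2 do not overlap with that of Kcnma1, but the difference itself was not tested.

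Of the 10 tested auxiliary genes, 8 were higher and 2 lower, the 8 including Kcnip4, which was at -0.029 after the trend was removed. Kcnab2, a cytoplasmic subunit of the Kcna channels with the fold of an aldo-keto reductase, had the smallest p-value of all members. It was 7.73% higher, with an interval of 0.030 to 0.19 (unadjusted p = 0.00682, adjusted p = 0.113, DESeq2). Given its standard error a change of 1.08-fold was needed, and the call depends on the processing. Adjusted over the tested genes with a mean normalized count of at least 100, its p-value was 0.0941, and after removal of a trend on transcript length and GC content its log2 fold-change was 0.16 (adjusted p = 0.00612). The related Kcnab1 and Kcnab3 were at 0.030 and 0.0049. Kcne2, a subunit with a single membrane span, was 9.27% higher (-0.015 to 0.27, adjusted p = 0.420). Kcnmb2, which binds Kcnma1, had the highest value of all tested members, 0.29, at a mean normalized count of 35.4 and with an interval of -0.060 to 0.64. The calcium-binding subunits of the Kcnd channels, Kcnip1, Kcnip3 and Kcnip4, were at -0.049, -0.30 and 0.029. The interval of Kcnip3, just above the filter with a mean normalized count of 27.1, was -0.74 to 0.14.

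The error of the change exceeded that of genes of like abundance in a pair of members. The standard error of Kcnj13, the channel of the apical membrane of the pigment epithelium, was 0.53, or 2.79 times the median of the 200 genes nearest in abundance, and its interval ran from -0.97 to 1.12. That of Kcnq1ot1, whose log2 fold-change was 0.077 and, with the trend removed, -0.014, was 3.37 times. The other 49 tested members lay between 0.848 and 1.44 times, and 2.31% of all tested genes lay over 2. The 4 tested pigment epithelium markers, Rpe65, Ttr, Lrat and Tyrp1, lay between 3.49 and 10.1 times and the 3 lens markers between 10.5 and 18.4 times. The highest ratios among markers of the retina itself were 3.88 for cones, 3.01 for Muller glia and 2.14 for rods, so ratios over 2 were also seen there. The log2 fold-changes of the tested pigment epithelium markers ran from -0.61 to 0.31, and those of the lens markers from -1.22 to -0.99. Both lists had 0 DEGs and 0 unadjusted p-values below 0.05 in DESeq2. Among tested markers of the retina itself, DEGs were 1 of 5 for rods, 1 of 4 for cones and 2 of 5 for bipolar cells. The share over all tested genes was 5.62%. The lists for amacrine and horizontal cells, ganglion cells and Muller glia held 0. The part of any of these cells in the values of the channel genes, Kcnj13 among them, was not tested. Kcnq1ot1 is transcribed from the strand opposite to Kcnq1, which had a mean normalized count of 1.59. Whether the counting used strand is not given in the sources used here, so reads of the pair may not be told apart, although the kit marks strand.

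**Figure D4:**
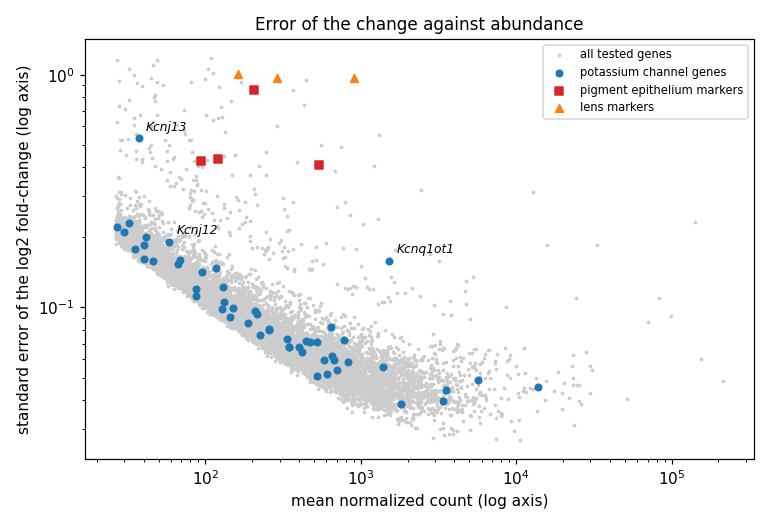
Standard error of the log2 fold-change against mean normalized count (both log axes) for all tested genes, potassium channel genes, and markers of the pigment epithelium and the lens. Kcnj13 and Kcnq1ot1 stand above the band of genes of like abundance, as the tested markers of both neighbouring tissues do.

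The 42 members below the filter were 7 listed at 0, a further 25 under a mean normalized count of 10, and 10 from there up to Kcnn3. The deposited count table lists 31616 transcript models, and 16 members have more than 1 of them. Of these 16, 6 were tested (37.5%), against 45 of the 77 members with a single model (58.4%). Over all genes the shares were 16.7% and 45.4%, and the median mean normalized count was 0.806 with several models and 12.9 with 1. Kcnq5 and Kcnh1, which are known from the retina, have 2 models each and were listed at 0 and 0.165. The neuronal scaffold genes Ank3 and Dlg4, with 9 and 2 models, were at 0 and 0.0722. A low value of a gene with several models is therefore given as listed, and its expression was not determined. Kcnd3 and Kcnc1, with 2 models each, passed the filter at 702 and 582. Kcnj6, with 4 models, passed at 67.0, and Kcnt1 and Kcnip3, with 2 each, at 46.3 and 27.1. The levels of these 3 may likewise be too low.

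**Figure D5:**
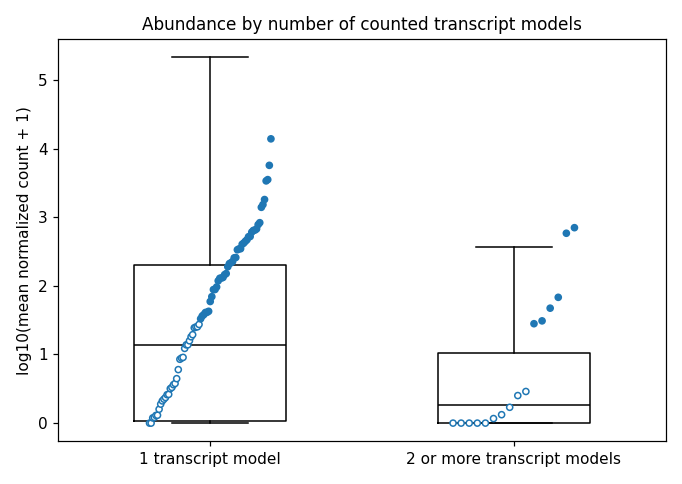
Mean normalized count, as log10 of the value plus 1, of genes with 1 and with several transcript models in the count table. Boxes show the quartiles and median of all genes with whiskers to the last value within 1.5 box lengths, and points are potassium channel genes, filled where tested. The median of all genes is 12.9 counts with 1 model and 0.806 with several.

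Proteins that anchor or assemble with potassium channels under other symbols were followed as a list of 22 genes, of which 15 were tested. The fuller list held 4 more genes, which are not reported here and not in these counts. In DESeq2, 0 of them passed the threshold, against 5.62% of all tested genes, and 4 (26.7%) had an unadjusted p-value under 0.05, against 14.8%. Among these were the scaffold gene Dlg1, 5.88% higher, Lrrc55, an auxiliary subunit of the Kcnma1 channel, 26.7% higher, and Vapb, a protein of the endoplasmic reticulum, 6.81% lower. Their adjusted p-values were 0.205, 0.303 and 0.213.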

How the data were processed

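The authors trimmed single-end reads of 75 bases with Trimmomatic, mapped them with TopHat2 to NCBI build 37.2, counted them with HTSeq, and compared 8 spaceflight with 8 ground control libraries in DESeq2 1.22.2 (R 3.5.1). The signal in the deposited table is the count that the authors divided by DESeq2 size factors, averaged over the libraries. The log2 fold-change with its standard error, the score (the Wald statistic) and the p-values are the authors' deposited values. Per the file headers, the columns of counts per library carry codes that no label pairs with a mouse, so they were not used. The edgeR fit planned on them was not run.

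Every result rests on the authors' comparison. DEGs had an adjusted p-value under 0.1 over 10669 tested genes. The 95% intervals assume a normal distribution. Transcript length and GC content came from GENCODE M21 (GRCm38), matched by RefSeq accession for 92 members and by symbol for 1, and may differ from the models counted by the authors. No coordinates are given, since the builds differ. The trend was a robust fit (MASS 7.3.60.0.1, R 4.3.3) on natural splines with 4 degrees of freedom each. The steps, in Python 3.11.15 (pandas 2.3.3, numpy 2.4.6, matplotlib 3.10.9, scipy 1.17.1), were tested on simulated data.

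Classes, partner genes and members were chosen with earlier results of these data known. Named with values are tested members with an unadjusted p-value under 0.05, the 3 with the highest level per kilobase and the largest rise and fall in each class, and members known from the retina. Others were named after their values were seen. Values of some genes under this rule are not reported here, and counts over all members include them.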

Additional observations from a re-analysis of the deposited data

How the results depend on the processing

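The count of 0 DEGs held at adjusted p-values of 0.05 and 0.01, with the adjustment over every gene with a p-value, with Wald statistics scaled by their central spread, and, in alternatives chosen after seeing the data, in a test against a 1.1-fold change and among members with 1 transcript model. It was 1, Kcnab2 in both cases, with a minimum mean normalized count of 100 and after removal of the trend on length and GC content. The smallest adjusted p-value of a member was 0.113, and in these same 2 alternatives 0.0941 and 0.00612. It was 0.193 with the adjustment over every gene with a p-value and 0.622 with the central spread. The count of 6 members at an unadjusted p-value under 0.05 was 1 at a p-value of 0.01 and 1 with the central spread, and between 4 and 7 otherwise. The median log2 fold-change of the calcium-activated class, 0.12, was -0.0017 as an inverse-variance weighted mean, in which Kcnma1 has the largest weight. The other class medians moved by less than the median standard error of their members, but the inward rectifier median, -0.037, was 0.054 over every member with a value and 0.032 with a minimum mean normalized count of 100. The voltage-gated pore-forming median, -0.0057, was 0.012 with the trend removed, 0.0019 among members with 1 transcript model and 0.0010 as a weighted mean. Of the 51 tested members, 44 kept their direction with the trend removed and 7 did not. Among the latter were Kcng4 at 0.035, Kcnip4 at -0.029, Kcnq1ot1 at -0.014, Kcnd3 at 0.022, Kcnf1 at 0.0051 and Kcnh7 at -0.0053. No paired analysis was possible because the columns of counts per library carry no mouse number. The precision of each value is that of its deposited standard error, which was largest for members of low abundance.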

Other observations

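Below the filter on abundance, Kcna7 had an unadjusted p-value of 0.0188 at a mean normalized count of 1.23, too few reads for its fold-change to be given. Kcnk12, a two-pore member at a mean normalized count of 23.5, had a log2 fold-change of -0.45 with a 95% interval of -0.91 to 0.0087 (unadjusted p = 0.0545). Neither gene was tested after adjustment.

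When all tested genes were ranked by abundance and split into 5 bins of equal size, the bins held 12, 9, 6, 14 and 10 tested members, from the lowest to the highest abundance. An unadjusted p-value under 0.05 was seen in 1, 2, 1, 1 and 1 of them. Over all tested genes the share under that p-value was 8.11% in the lowest bin and 25.1% in the highest, in which Kcnab2 was the 1 member of 10.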
